A study of Mus musculus with 4 samples.

Results

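The genes described here encode the proteasome of the mouse and its immune form, measured by array in bone marrow cultures that form osteoclasts, the bone-resorbing cells. They were chosen by name alone: every probe set whose only gene symbol in the platform annotation begins with Psma, Psmb, Psmc, Psmd, Psme, Psmf or Psmg and then a digit. This gave 103 probe sets of 49 genes, out of 34945 probe sets of 18193 genes with 1 symbol. The probe set of a gene with the highest mean log2 signal stood for it. Of the 49 genes, 47 were above the signal floor on all 4 arrays, Psma8 on 3 and Psmb11 on none. The floor was 32.4 signal units, the median of all values, and lower signals were set to it. Psme2, a gene of the immune activator, had no probe set annotated to it alone and was not analysed here. The symbol rule also took in Psmc3ip and Psme3ip1, which encode partner proteins and not subunits.

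The marrow donors were 12-week-old female C57Bl/6J mice, with 1 array for each of 4 times. The day 1 array holds marrow at the day of extraction. The day 4 array follows 3 days of culture (a-MEM, 10% FBS, vitamin D3 at 10 nM), and the arrays of days 5 and 7 follow 4 and 6 days of culture in all, the later part with 10 nM vitamin D3, 20 ng/ml M-CSF and 40 ng/ml RANKL. M-CSF is the growth factor of macrophages and RANKL the cytokine that drives osteoclast formation. The labels call all 4 samples primary osteoclasts, but 4 of 14 osteoclast markers were at the floor on day 1, among them the calcitonin receptor gene Calcr and the fusion gene Dcstamp. On days 5 and 7 all 14 were above it. Both cytokines were present in every culture after day 4, so they cannot be told apart from time. With 1 array a time there was no test, and every value describes these arrays only. Called, below, means 2-fold or more apart. In RNA from mixed cells, fewer cells of a type and less RNA per cell cannot be told apart.

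The proteasome degrades proteins marked with ubiquitin. Its core, the 20S particle, is a barrel of alpha rings, which form the gate, and beta rings, which hold the proteolytic sites. The 19S particle caps the core; its ATPases unfold the substrate and its other subunits bind and remove ubiquitin. In lymphoid and interferon-treated cells the catalytic subunits encoded by Psmb6, Psmb7 and Psmb5 are exchanged for those of Psmb9, Psmb10 and Psmb8, and the cap formed by the products of Psme1 and Psme2 can open the core. This immunoproteasome makes many of the peptides that MHC class I molecules present. In the osteoclast lineage the proteasome degrades the inhibitor of NF-kappaB after RANKL binds its receptor. Interferons act on genes through the GAS and ISRE elements, and the factor encoded by Nfe2l1 raises proteasome genes together through the antioxidant response element (ARE).

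Upstream regions are shown for 5 chosen genes: Psmb9 and Psmb8 of the immune set, and Psmb5, Psmb6 and Psmd12 of the constitutive set. Each is the 250 bases before the RefSeq gene start (build GRCm38.p6), read 5′ to 3′ on the gene's strand. Capitals mark a match to GAS (TTCNNNGAA) in Psmb8, to ARE (TGACNNNGC) in Psmb5, Psmb6 and Psmd12, and to the CCAAT box in Psmb9; the matches in Psmb9 and Psmd12 are on the opposite strand and appear as its complement.
Psmb9, chr17:34187331-34187580, minus strand: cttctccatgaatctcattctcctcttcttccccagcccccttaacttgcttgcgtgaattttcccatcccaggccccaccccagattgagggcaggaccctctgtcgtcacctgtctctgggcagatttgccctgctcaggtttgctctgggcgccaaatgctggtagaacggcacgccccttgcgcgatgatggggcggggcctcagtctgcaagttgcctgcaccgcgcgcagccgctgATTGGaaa
Psmb8, chr17:34197945-34198194, plus strand: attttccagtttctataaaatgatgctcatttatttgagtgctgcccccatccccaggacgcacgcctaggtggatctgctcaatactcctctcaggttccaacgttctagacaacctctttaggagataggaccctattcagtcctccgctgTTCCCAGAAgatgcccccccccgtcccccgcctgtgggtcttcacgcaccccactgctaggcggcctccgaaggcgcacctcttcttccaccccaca
Psmb5, chr14:54617996-54618245, minus strand: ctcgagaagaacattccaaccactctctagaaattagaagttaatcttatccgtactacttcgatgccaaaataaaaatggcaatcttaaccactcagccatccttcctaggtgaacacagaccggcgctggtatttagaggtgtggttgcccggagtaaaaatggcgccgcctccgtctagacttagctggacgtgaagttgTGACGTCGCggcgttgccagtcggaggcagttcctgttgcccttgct
Psmb6, chr11:70525107-70525356, plus strand: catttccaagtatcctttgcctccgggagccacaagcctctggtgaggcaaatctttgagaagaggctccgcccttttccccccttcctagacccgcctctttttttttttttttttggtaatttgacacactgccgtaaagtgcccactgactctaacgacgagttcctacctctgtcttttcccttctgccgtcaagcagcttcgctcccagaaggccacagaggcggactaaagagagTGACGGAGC
Psmd12, chr11:107479278-107479527, plus strand: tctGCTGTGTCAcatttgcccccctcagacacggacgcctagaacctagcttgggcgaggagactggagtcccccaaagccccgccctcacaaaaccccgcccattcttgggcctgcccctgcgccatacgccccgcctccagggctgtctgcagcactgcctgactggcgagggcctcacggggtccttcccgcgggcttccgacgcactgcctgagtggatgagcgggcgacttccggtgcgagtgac
Both strands of the 250 bases were searched, overlaps between motifs were allowed, and 41 of the 49 genes had an upstream region in the table. GAS was found in 1 of the 4 immune genes and 0 of 25 constitutive genes, against 8.13% of 27025 genes. ARE was found in 0 of 4 and in 4 of 25 (Psmb5, Psmb6, Psmc6 and Psmd12), against 11.5% of all genes. The constitutive genes printed above are all from these 4, so they do not represent the 25. ISRE (TTTC, any 2 bases, then TTTC) was found in 0 of 4 and in 2 of 25 (Psmb3 and Psmd4), against 3.46%. CCAAT was found in 1 of 4 and in 10 of 25, against 37.5%. These matches are letters in a window and not binding sites. The order of genes in RefSeq places Psmb9, Tap1, Psmb8 and Tap2 next to each other on chromosome 17, in the MHC region; Tap1 and Tap2 encode the transporter that carries proteasome products to MHC class I. The 300-base windows (50 bases after the start included) of Psmb9 and Tap1, which are read in opposite directions, share 275 bases, so the sequence printed for Psmb9 lies almost wholly in the upstream window of Tap1 as well.

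The immune and the constitutive subunits moved apart between fresh marrow and culture. The 4 immune genes had a median log2 difference of -0.39 on day 7 over day 1, while the 31 constitutive subunits of the core and cap had a median of 0.58. Over all 11967 genes tested in that comparison the median was 0.01. The gap between both group medians was -0.97. By step it was -0.74 from day 1 to day 4, -0.31 from day 4 to day 5 and 0.16 from day 5 to day 7. Its largest part thus lay in the first step. The steps differ in length, and the first also holds the change from fresh marrow to culture. The part of M-CSF and RANKL in the gap was not tested. The immune genes were mostly below day 1 on day 4, with 3 of 4 lower where 46.0% of genes tested were, and the constitutive ones mostly above, with 24 of 31 higher where 54.0% were. On day 7 over day 1, 3 of 4 immune genes were lower, where 49.7% were. The size of these medians depends on the scaling: measured from the median of all genes, the constitutive one for day 7 over day 1 was 0.58 as deposited but 0.24 after quantile normalization, which moved the median of all genes by 0.16, and the immune one -0.39 and -0.75. For day 4 over day 1 the constitutive one was 0.12 and 0.02, and the immune one -0.62 and -0.73.

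**Figure D1:**
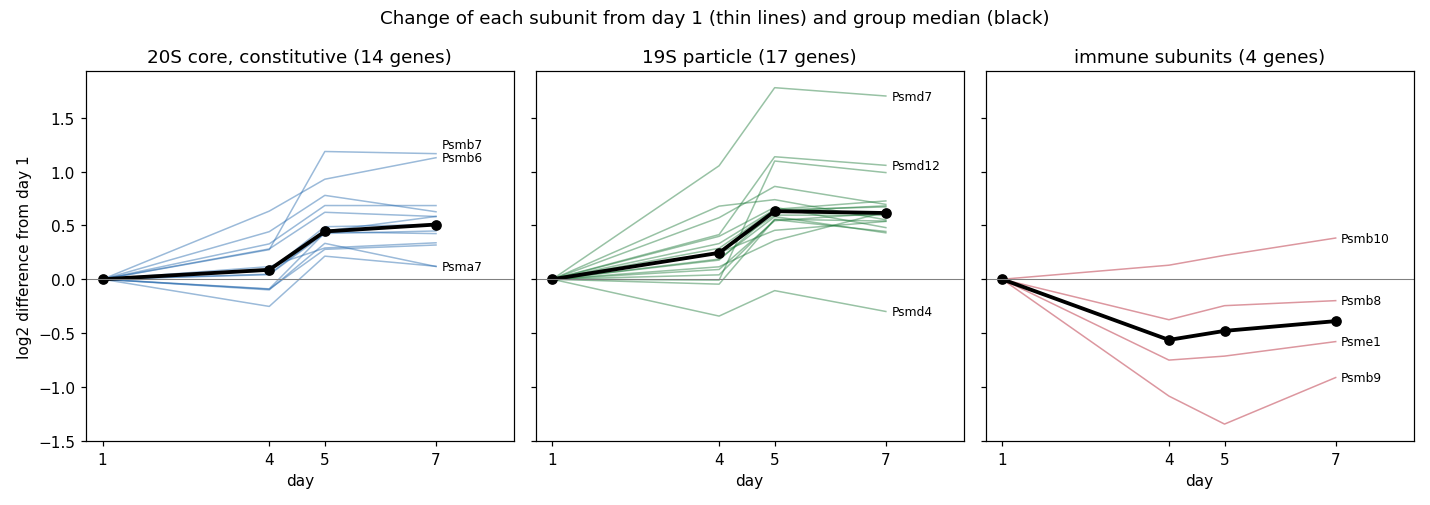
Log2 difference of each subunit from its own day 1 signal, by day, for the 14 constitutive genes of the 20S core, the 17 genes of the 19S cap and the 4 immune genes; thin lines are genes, the black line is the group median and each day is 1 array. The 20S and 19S medians reach 0.51 and 0.62 on day 7, and Psmb10 is the only immune gene above its day 1 level.

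Among the immune genes the lowest relative to day 1 was Psmb9, which encodes the catalytic subunit beta-1i. Its signal was 2069 in fresh marrow and 975, 814 and 1099 on days 4, 5 and 7. The day 1 array stood above all cultured arrays, and the difference of day 4 over day 1 was -1.09 on the log2 scale, 2.12-fold lower. Psmb9 was 1 of 2 members called lower in that comparison, where 8.65% of genes tested were. On day 7 it was 1.88-fold lower than on day 1.

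Psme1, which encodes the alpha subunit of the activator cap, had signals of 4760, 2828, 2901 and 3186 on days 1, 4, 5 and 7. It was highest on day 1 and nearly level across the cultured arrays, with log2 differences from day 1 of -0.75 (day 4) and -0.58 (day 7). Psmb8, which encodes beta-5i, had signals of 3223, 2483, 2719 and 2808. The pattern was the same and smaller, with log2 differences of -0.38 and -0.20. A second Psmb8 probe set, with signals of only 59.0 to 69.0, differed by -0.02 and -0.04.

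Psmb10, which encodes beta-2i, went the other way. Its signals were 1735, 1899, 2024 and 2262, with day 1 the lowest and day 7 the highest. The log2 difference of day 7 over day 1 was 0.38, under 2-fold. Apart from Psmb9 on day 4 over day 1, no immune gene was called in any of the 5 comparisons. Across these, 0.853% to 12.7% of genes tested were called higher and 4.04% to 16.2% lower. On day 5 over day 4 the list held 1 negative difference (Psmb9, -0.26), where 44.3% of genes were lower and 4.04% were called lower. From day 5 to day 7 all 4 had a positive difference, from 0.05 for Psmb8 to 0.43 for Psmb9, where 35.4% of all genes did. Among genes with at least 500 signal units on both arrays, 42.7% did. The second Psmb8 probe set, of weak signal, gave -0.23 at this step.

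Each immune catalytic subunit competes with 1 constitutive subunit for its place in the ring, so the pairs were set side by side as differences from day 1. The signal of Psmb6, the partner of Psmb9 that encodes the constitutive beta-1, was 2381, 3693, 4536 and 5210 on days 1, 4, 5 and 7, higher on every later array. It was 2.19-fold higher on day 7 than on day 1, and the difference of Psmb9 minus that of Psmb6 was -2.04 on the log2 scale. For day 4 over day 1 it was already -1.72.

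Psmb5, the partner of Psmb8 that encodes the chymotrypsin-like beta-5, had signals of 3314, 4029, 5101 and 4965. It was higher on days 5 and 7 than before, with a log2 difference of 0.58 on day 7 over day 1. The difference of Psmb8 minus that of Psmb5 was -0.78. Psmb7, the partner of Psmb10 that encodes beta-2, had signals of 721, 873, 1642 and 1619. Its difference lay in the step from day 4 to day 5 (0.91) and reached 2.25-fold on day 7 over day 1, and Psmb10 minus Psmb7 gave -0.78. In this pair the gap was -0.14 at the first step and -0.82 at the second. Thus for Psmb9 and Psmb6 the larger part of the gap lay in the step from day 1 to day 4. It did so too for Psmb8 and Psmb5, with -0.66 on day 4 over day 1. For Psmb10 and Psmb7 it lay in the step from day 4 to day 5. These steps differ in length, and the part of M-CSF and RANKL in the gaps was not tested.

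**Figure D2:**
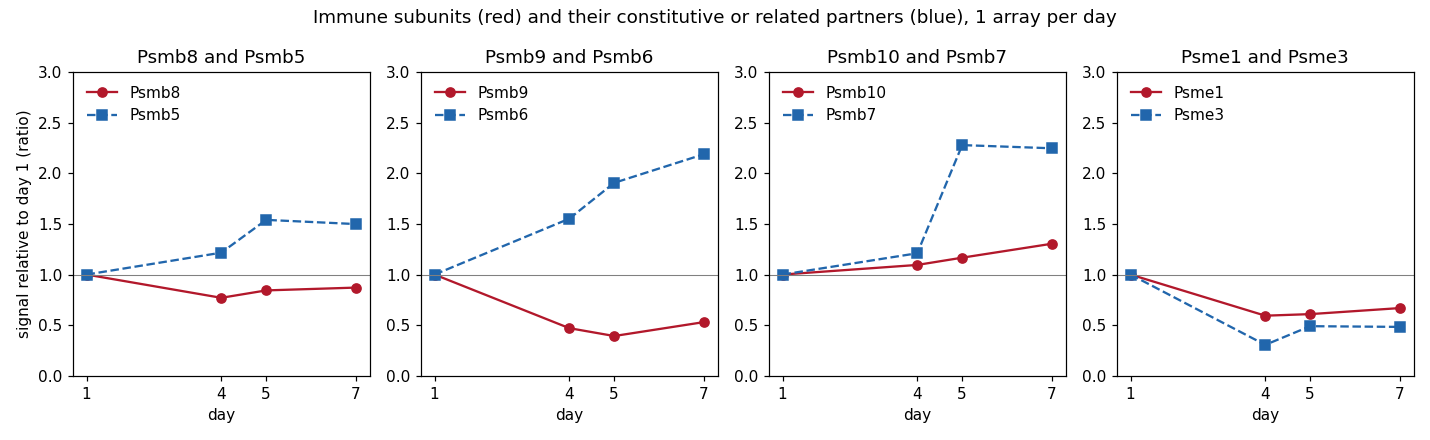
Signal of each gene divided by its own day 1 signal, by day, on a linear axis; red circles are immune genes, blue squares the constitutive subunit that each replaces (for Psme1, the related activator gene Psme3), with 1 array per day. By day 7 Psmb6 is 2.19-fold higher and Psmb9 1.88-fold lower than on day 1, while Psmb10 and Psmb7 both lie above 1; signals of different genes are not compared.

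The activator genes without an immune role differed from each other. Psme3, which encodes the nuclear activator PA28-gamma, had signals of 1448, 443, 710 and 700 on days 1, 4, 5 and 7. Day 1 stood well above the rest, and Psme3 was 3.27-fold lower on day 4 and 2.07-fold lower on day 7. A second probe set differed by -0.99 and -0.83 on the log2 scale. Psme3 was the other member called lower on day 4, and on day 7 over day 1 it alone was called lower, where 16.2% of genes tested were. With the probe sets of Psme3 averaged, 1 of them at the floor on all arrays, it was under 2-fold in both (-0.90 and -0.63), and with medians scaled it was so on day 7 (-0.91). Psme1 minus Psme3 gave 0.96 on day 4 over day 1, so the immune activator gene was the less reduced of both. Psme4, which encodes the activator PA200, had signals of 1892, 2205, 2356 and 1964 and a log2 difference of 0.05 on day 7 over day 1. Psmf1, which encodes the inhibitor PI31, was lowest on day 4, with signals of 339, 255, 378 and 385.

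The 20S core as a whole was higher on the later arrays. Day 1 was the lowest of the 4 arrays for 24 of the 31 constitutive subunits of core and cap, where 38.0% of genes had this. All 14 constitutive core genes had both day 5 and day 7 above both day 1 and day 4, where 26.9% of 12438 genes did. Between days 1 and 4 they were mixed: 10 had a positive and 4 a negative difference, with a median of 0.09 that differed little from the 0.06 of all genes tested. None of the 14 was called in that comparison, where 10.0% of genes were called higher and 8.65% lower. On day 5 over day 4 all 14 were higher by some amount, from 0.17 for Psmb1 to 0.91 for Psmb7, where 55.7% of genes tested were. The median was 0.38.

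The 7 alpha ring genes were close to each other in that step. Their differences of day 5 over day 4 ranged from 0.34 for Psma5 to 0.47 for Psma2. Psma2 had signals of 4859, 4079, 5639 and 5283 on days 1, 4, 5 and 7, so that day 4 was the lowest array. Psma3 had signals of 4278, 5374, 6879 and 6878, with day 1 the lowest. A second Psma3 probe set, of weak signal (104, 74.8, 61.7 and 34.6), was lower on each later array. Over the whole course Psma3 had the largest log2 difference of the alpha genes, 0.68, and Psma2 and Psma7 the smallest, 0.12. Psma7, with 2998, 2799, 3778 and 3253, was 1 of 5 alpha genes below their day 5 signal on day 7. Psma8, which encodes the alpha subunit of the testis proteasome, was at the floor on day 1 and had signals of 128, 138 and 102 afterwards. It was at least 3.94-fold higher on day 4, a bound that depends on the floor: with the floor at percentile 60 the log2 difference was 0.89.

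The 4 genes of structural beta subunits, Psmb1 to Psmb4, had differences of 0.32 to 0.58 on day 7 over day 1. Psmb2 had the largest, with signals of 2040, 2181, 2783 and 3058, higher on each later array. Psmb3 had signals of 2634, 2476, 3553 and 3746, but its other probe set gave 1693, 3008, 3567 and 3530. The difference of Psmb3 on day 4 over day 1 was thus -0.09 in the first and 0.83 in the second, so its direction at that step depends on the probe set. Psmb11, which encodes the catalytic subunit of the thymus, was at or under the floor on all 4 arrays.

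Most 19S cap genes were also higher on the late arrays. Of the 17 that the symbol rule takes in, 15 had both late arrays above both early ones, where 26.9% of all genes did. The exceptions were Psmd3 and Psmd4. On day 5 over day 4 all 17 were higher by some amount, where 55.7% of genes tested were. Their differences ranged from 0.06 for Psmd3 to 1.11 for Psmc4, with a median of 0.36. The median on day 4 over day 1 was 0.25, with 14 genes positive, where 54.0% of genes tested were. Over day 7 against day 1 it was 0.62, with 16 positive and Psmd4 negative, where 50.3% of genes tested were positive.

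Among the ATPase genes, Psmc4 had signals of 2065, 2053, 4422 and 4105 on days 1, 4, 5 and 7, a step between day 4 and day 5. It was 2.15-fold higher on day 5, the only constitutive subunit called at that step, where 2.02% of genes tested were called higher. A second Psmc4 probe set, with 1315, 1763, 2504 and 2245, gave a log2 difference of 0.51, under 2-fold, and the reported probe set gave 0.97 after quantile normalization. Psmc3 had signals of 2034, 2560, 3192 and 3369 and was higher on each later array. The other ATPase genes had differences of 0.44 (Psmc5) to 0.68 (Psmc6) on day 7 over day 1.

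The 19S genes that are not ATPases ranged from -0.34 for Psmd4 to 1.05 for Psmd7 on day 4 over day 1. Psmd7, which encodes the partner of the deubiquitinating subunit, had signals of 679, 1411, 2333 and 2211. It was lowest on day 1 and highest on day 5, and was the only constitutive subunit called on day 4 over day 1 (2.08-fold), where 10.0% of genes tested were higher. On day 7 over day 1 it was 3.26-fold higher. A second Psmd7 probe set, of weak signal (127, 84.6, 67.1 and 49.4), went the other way, and with the probe sets of Psmd7 averaged both differences were under 2-fold (0.15 and 0.11). Psmd14, which encodes the deubiquitinating enzyme itself, had signals of 3272, 3485, 4772 and 5014 and a log2 difference of 0.62.

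Psmd12 had signals of 1335, 1781, 2940 and 2782 and was 2.08-fold higher on day 7 than on day 1. With Psmb6, Psmb7 and Psmd7 it made 4 of 31 constitutive subunits called higher in that comparison, where 12.7% of all genes tested were. After quantile normalization Psmb6 (0.95) and Psmd12 (0.97) were under 2-fold. The share past 2-fold was near the background, while 30 of the 31 were higher by some amount against 50.3% of genes. Among genes with at least 500 signal units on both arrays, 58.1% were higher. Psmd4, which encodes a ubiquitin receptor, stood apart with signals of 2291, 1807, 2129 and 1862. Its log2 difference of day 7 over day 1 was -0.30, and a second probe set gave 0.06. Psmd3 had signals of 745, 1193, 1244 and 1092, with day 1 the lowest and the later arrays close together.

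**Figure D3:**
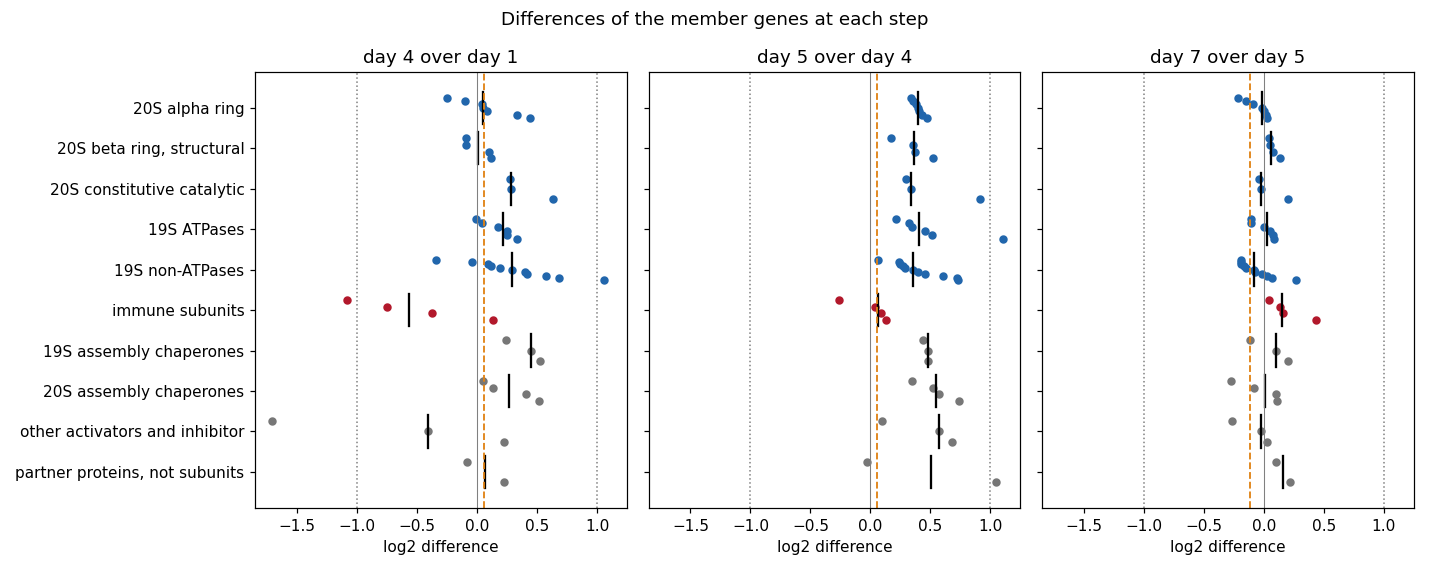
Log2 differences of 47 member genes at the 3 consecutive steps, by role; points are genes, short black lines group medians, the orange dashed line the median of all genes tested and dotted lines 2-fold. On day 5 over day 4 every constitutive point (blue) lies above 0, while the immune points (red) lie between -0.26 and 0.13.

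The genes of proteins that assemble the particle also had higher signals on days 5 and 7. The 4 genes of 20S assembly chaperones, Psmg1 to Psmg4, had a median log2 difference of 0.55 on day 5 over day 4 and of 0.79 on day 7 over day 1. Psmg2 had signals of 639, 913, 1522 and 1437 and was 2.25-fold higher on day 7 than on day 1; its other measurable probe set gave a log2 difference of 0.71. Psmg1 had signals of 661, 877, 1305 and 1404 and was 2.12-fold higher. The 19S chaperone genes Psmd5, Psmd9 and Psmd10 had a median of 0.84, and Psmd9, with signals of 352, 480, 668 and 770, was 2.19-fold higher. Its other probe sets were near the floor, and the mean over them gave 0.35. All 7 chaperone genes had both late arrays above both early ones, where 26.9% of all genes did. On day 7 over day 1, 12.7% of all genes tested were called higher, the share to set beside Psmg1, Psmg2 and Psmd9.

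Of the partner genes, Psmc3ip, whose product acts in meiotic recombination, had signals of 102, 118, 244 and 284. Days 5 and 7 stood above days 1 and 4, and it was 2.06-fold higher on day 5 than on day 4 and 2.79-fold higher on day 7 than on day 1. A second probe set gave log2 differences of 1.26 and 1.52, and adding 16 in place of the floor gave 0.95 on day 5 over day 4. It was the only member called on day 7 over day 4 as deposited, where 3.12% of genes were called higher and 9.12% lower; with medians scaled Psmb7 (1.06) and Psmc4 (1.16) also passed 2-fold. By any amount, 30 of 31 constitutive and 4 of 4 immune genes were higher in that comparison, where 42.9% of genes were and 57.1% were lower. Among genes of strong signal, at least 500 units on both arrays, 55.8% were higher. Psme3ip1, whose product binds PA28-gamma, had signals of 780, 734, 718 and 769, within a narrow range.

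From day 5 to day 7 the constitutive subunits were at a similar level. None of the 31 was called, where 0.853% of all genes were called higher and 5.84% lower, and the differences ranged from -0.22 for Psma7 to 0.27 for Psmd8. Psmd8, a 19S subunit gene, had signals of 3176, 3442, 4074 and 4903. By any amount 18 were lower, where 64.6% of genes were. Among genes with at least 500 signal units on both arrays, 42.7% were higher. The constitutive median of -0.02 became 0.01 with quantile normalization and 0.16 with scaling to equal medians, so its sign depends on the scaling. Scaling to equal medians moved the median of all genes at this step by 0.17 and quantile normalization by 0.15. Relative to all genes, the constitutive median was 0.10 higher as deposited, 0.10 higher after median scaling and -0.02 after quantile normalization.

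The step from day 4 to day 5 was less dependent on scaling in direction but not in size. The constitutive median was 0.37 as deposited, 0.36 after median scaling and 0.23 after quantile normalization, with 31, 31 and 30 of 31 genes higher. It was 28 of 31 with probe sets averaged, and 24 of 26 without probe sets that match several transcripts. The immune median at this step was 0.06 as deposited and 0.05 after median scaling but -0.06 after quantile normalization. Genes with a strong signal shifted up somewhat at this step: the 4609 genes with at least 500 signal units on both arrays had a median of 0.10, and 62.3% of them were higher. The constitutive median was 0.27 above that. For scale, 18 spiked control probe sets had a median log2 difference of 0.01 and an SD of 0.10 between these arrays. For day 4 over day 1 these were -0.13 and 0.17, and for day 7 over day 1 -0.18 and 0.17. The constitutive median of 0.18 on day 4 over day 1 was little larger than that SD. The same held for Psmb8 on day 7 over day 1 (-0.20). The SD of the controls concerns single probe sets and does not measure the spread of a group median or between cultures.

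Other probe sets of the member genes gave a measure of reliability. At a signal of at least 500 on all 4 arrays, 16 of 16 other probe sets had the direction of the reported 1 on day 5 over day 4, 12 of 16 between days 1 and 4, and 8 of 16 between days 5 and 7. Day 7 gave 14 of 16 against day 4 and likewise against day 1. With every other probe set above the floor, weak ones included, it was 24 of 31 at the step from day 4 to day 5. The exceptions between days 1 and 4 were probe sets of Psmb3, Psmb4, Psmc4 and Psme4. The pooled SD between probe sets of 1 gene, over all genes, was 0.41 at the first step, 0.29 at the second and 0.26 at the last. No constitutive subunit but Psmd8 (0.27) differed by more than that at the last step. For day 7 over day 1 the pooled SD was 0.53. Psmb8 (-0.20), Psmb10 (0.38) and the immune median (-0.39) were smaller in size than this. Psmb9 (-0.91), Psme1 (-0.58) and the constitutive median (0.58) were larger, the last 2 only slightly. The pooled SD concerns single probe sets, so it does not measure the spread of a group median or the spread between cultures.

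**Figure D4:**
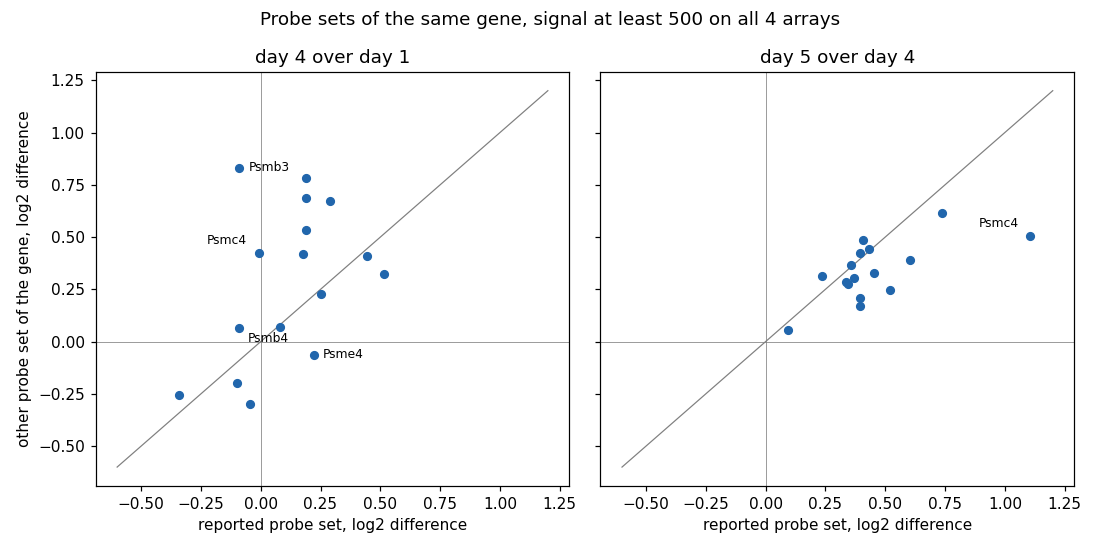
Log2 difference of the other probe set of a member gene against that of the reported probe set, for probe sets with a signal of at least 500 on all 4 arrays; points are 16 probe sets and the grey line marks equal values. On day 5 over day 4 all points are positive on both axes, whereas on day 4 over day 1 Psmb3, Psmc4, Psmb4 and Psme4 differ in sign.

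Genes around the proteasome were taken from lists of roles. Of 9 measured proteasome-associated genes that the symbol rule leaves out, none was called on day 7 over day 1, where their median was 0.22. Over all genes tested in that comparison, 12.7% were called higher and 16.2% lower. Sem1, which encodes a small 19S subunit, had signals of 6282, 6155, 6201 and 5695 on days 1, 4, 5 and 7, and unlike most of the cap it was lowest on day 7. Pomp, which encodes the maturation factor of the core, had signals of 3672, 4458, 5275 and 5495 on days 1, 4, 5 and 7, higher on each later array. Nfe2l1 had signals of 625, 705, 698 and 723 and was nearly level across the arrays. Uchl5, which encodes a 19S-bound deubiquitinase, had 1255, 1162, 1811 and 2346 and was 2.02-fold higher on day 7 than on day 4. Of 8 measured genes for the E1 enzyme Uba6, shuttle factors and the Vcp complex, none was called in the 5 comparisons. Across these, 0.853% to 12.7% of all genes tested were called higher and 4.04% to 16.2% lower. The median of the 8 on day 5 over day 4 was 0.12 with 5 positive, where 55.7% of genes tested were.

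Genes of MHC class I presentation were mostly lower on the late arrays. Of 12 measured, 9 had both late arrays below both early ones, where 26.1% of genes did, and 4 were called lower on day 7 over day 1, where 16.2% of genes were. Tap1, the neighbour of Psmb9, had signals of 884, 442, 355 and 369: day 1 stood above the cultured arrays, as for Psmb9. Nlrc5, which encodes the transactivator of MHC class I genes, had signals of 699, 351, 277 and 185. B2m, which encodes the light chain, had 13495, 12601, 12325 and 11216, a log2 difference of -0.27 on day 7 over day 1. The 3 genes of the list that were higher on the late arrays, Calr, Canx and Pdia3, encode general chaperones of the secretory pathway.

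The interferon response list was lower at the same step as 3 immune subunits. On day 4 over day 1, 17 of 24 measured genes were called lower and 1 higher. Over all genes tested, 8.65% were called lower and 10.0% higher. The median log2 difference of the list was -1.51, and its summed signal was 29600, 7857, 8234 and 9473 on days 1, 4, 5 and 7. Rsad2 was 34.3-fold lower and Usp18 13.3-fold lower on day 4, while Irf1, a transcription factor gene that acts on immune subunits, had signals of 1182, 890, 538 and 539 and a log2 difference of -0.41. The differences of the immune subunits, from -1.09 to 0.13, were smaller in size than the median of this list. Whether the interferon response or Irf1 has a part in the differences of the immune subunits was not tested.

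Most markers of several blood cell types were lower on day 7 than in fresh marrow, but the steps differed between the lists. All 14 neutrophil markers had less signal on day 4 than in fresh marrow, and 9 of them were called. Over all genes tested 8.65% were called lower on day 4 over day 1, the share to set beside each list here. The summed neutrophil signal was 128940, 75201, 41521 and 6344 on days 1, 4, 5 and 7. Of 11 B cell markers 8 were called lower, with summed signals of 12076, 6190, 2945 and 2866. Blnk, which was not lower on day 4, made up most of the late sums, and the other 10 summed to 3366, 886 and 302 on days 4, 5 and 7. On day 7 Cd79a, Ms4a1 and Pax5 were at the floor. Of 6 T and NK cell markers above the floor 5 were called lower, with sums of 1546, 269, 191 and 118, and Cd3e was at the floor on all 4 arrays. Of 9 erythroid markers above the floor 8 were called lower, and 1 was above the floor on the cultured arrays. MHC class II and dendritic markers had sums of 28116, 18854, 4328 and 2778, and megakaryocyte markers of 17546, 22156, 15121 and 8366. From day 5 to day 7 the sums of the neutrophil and B cell markers were lower. The part of these cell types in the differences of the immune subunits was not tested.

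Markers of osteoclasts, macrophages and stromal cells differed in when they were higher. The summed signal of 14 osteoclast markers was 19488, 34037, 53660 and 62213 on days 1, 4, 5 and 7. On day 5 over day 4, 12 of the 14 were higher and 2 lower, where 55.7% of genes tested were higher. On day 7 over day 1, 11 were called higher and 1 lower, where 12.7% and 16.2% of genes tested were. Ctsk, which encodes the collagen-degrading protease of osteoclasts, had 568, 7934, 12602 and 13694, and the phosphatase gene Acp5 had 2604, 6200, 10665 and 12208. Against the rest of the list, the carbonic anhydrase gene Car2 had 7267, 656, 2107 and 2049, and the integrin gene Itgb3 had 1156, 1257, 677 and 610.2. The sum of 11 macrophage markers was 46540, 72389, 68037 and 73617. On day 5 over day 4, 8 of the 11 were lower, where 44.3% of genes tested were. Of 13 stromal markers above the floor 12 were called higher on day 4 over day 1, where 10.0% of genes tested were. The summed signal over the list was 3348, 35491, 47455 and 30162. From day 1 to day 4 the stromal markers had a median log2 difference of 3.71, and the constitutive subunits one of 0.18. In the next step these medians were 0.44 and 0.37, and all 13 stromal markers were higher, where 55.7% of genes tested were. Whether the cell types account for the subunits was not tested.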

How the data were processed

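Total RNA (Trizol and RNeasy columns, 250.0 ng per the labels' protocols) was hybridised to 1 Affymetrix array per day. The authors deposited linear intensity values, 1 per probe set. The submitters' processing notes name GCOS 1.4 and MAS5; their scaling target was not given in the sources used here. Titles gave the day of each array, and nothing says whether the 4 came from 1 culture. Their number limits the precision.

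Without 64 control probe sets, 45037 remained, of which 932 with several symbols and 9160 with none were not named. Signals under the floor of 32.4 were raised to it before log2 was taken. Entrez numbers of all 103 member probe sets matched RefSeq (GRCm38.p6), which updated 0 symbols. The 5 comparisons share arrays, and each tested genes above the floor on at least 1 of its arrays. Constitutive subunits are Psma1 to Psma7, Psmb1 to Psmb7, Psmc1 to Psmc6 and 11 Psmd genes. Any member could be named, and from other lists the genes fixed for them and those with the largest differences. Members, lists and rules were chosen with earlier results of these data known. The 7 other settings put the floor at percentile 25 or 60 (8.43 and 68.9 units), added 16 in place of a floor, normalized by quantiles, scaled medians, averaged probe sets, or dropped probe sets matching several transcripts. The comparisons with genes of signal 500 or more were chosen after seeing the data. The counting was tested on simulated data. Python 3.11.15, numpy 2.4.6, pandas 2.3.3 and matplotlib 3.10.9 were used.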

Additional observations from a re-analysis of the deposited data

How the results depend on the processing

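With 1 array per day no replicate could be left out, and no paired analysis was possible because the groups share fewer than 2 replicate numbers. A median counted as moved where it shifted by more than 1 SD of the spiked controls, and no 2-fold call changed sign. Calls were gained as well: Psmc4 on day 7 over 1 with medians scaled (1.13), and, where a weak probe set stood in for one matching several transcripts, Psmc6 on day 7 over 1 (1.63) and on day 4 over 1 (2.35), and Psma3, which was lower on day 7 over 1 (-1.60, against 0.68 as reported). The causes of the shifts were not tested, except that dropping probe sets leaves fewer genes. Quantile normalization moved the constitutive median to 0.23 (day 5 over 4), 0.41 (day 7 over 1) and 0.26 (day 7 over 4), the immune median to -0.064 (day 5 over 4) and -0.59 (day 7 over 1), and the immune minus constitutive gap to -0.12 (day 7 over 4). Median scaling gave constitutive medians of 0.56 (day 7 over 4) and 0.16 (day 7 over 5), and immune medians of 0.34 and 0.33. Averaging the probe sets of a gene gave a constitutive median of 0.31 and a gap of -0.13 (day 7 over 4), and a gap of -0.79 (day 7 over 1). Without probe sets that match several transcripts, which leaves 26 constitutive and 3 immune genes, the immune median was -0.75 (day 4 over 1) and -0.58 (day 7 over 1), and the gap -0.99 (day 4 over 1). Against genes of signal 500 or more, chosen after seeing the data, the constitutive median was 0.27 and the immune one -0.036 (day 5 over 4). Psmc4 was under 2-fold on day 5 over 4 in 3 alternatives (0.51 to 0.97). Psmb6 (0.95) and Psmd12 (0.97) missed 2-fold on day 7 over 1 with quantile normalization, and Psmg2 (0.62) and Psmd9 (0.35) with averaged probe sets.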
